A study of Mus musculus with 3 samples.

Results

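Newborn Neurod1 positive excitatory neurons were the cells with at least 2 UMIs of Neurod1 and no UMI of Eomes, Mki67, Top2a, Dlx2 or Reln. They were taken from kept cells, which had at least 1000 detected genes and under 10% of their UMIs from mitochondrial genes. A UMI (unique molecular identifier) stands for 1 captured RNA molecule. Of 38239 deposited cell barcodes, 36295 were kept and 1385 were newborn neurons, with 678 from the control library, 179 from Emx1-Cre and 528 from hGFAP-Cre. The cells were chosen by the measured UMIs of these 6 genes, whose values are therefore given as a description alone. Neurod1 (ENSMUSG00000034701) lies at chr2:79452521-79456751 on mm10, the build of the files.

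In the developing cortex, radial glia give rise to intermediate progenitors, which express the transcription factor Eomes and divide to make glutamatergic neurons. NEUROD1, a basic helix-loop-helix factor, comes on as intermediate progenitors leave the cell cycle and is lost as the neurons settle, so it marks a short stage in which neurons leave the germinal zone and migrate. At this stage RND2 and UNC5D act in the turn from multipolar to bipolar shape, and the last neurons to be born take up upper-layer fates. MEK1 and MEK2, encoded by Map2k1 and Map2k2, phosphorylate ERK and pass on signals from growth factor receptors.

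The study's title names NOTCH, ERK and SHH signalling in the fates of astrocytes, oligodendrocytes and olfactory bulb interneurons, and the 3 genotypes bear on ERK. The control carried floxed Map2k1 and Map2k2 and had the genotype label WT. One mutant was Emx1-Cre; MAP2k1/2-dcko, and the other had the same double conditional knockout with hGFAP-Cre. Both were to lack Map2k1 and Map2k2 in cells that Cre had reached. Emx1-Cre acts in dorsal cortical progenitors from the start of neurogenesis, and in hGFAP-Cre the promoter of human GFAP drives Cre, which reaches radial glia from a later stage of gestation on. In every group the dye FlashTag (CellTrace Yellow) was put into the lateral ventricle at embryonic day 18 and dorsal cortex was taken at postnatal day 2. The tdTomato-positive cells were sorted and sequenced as 10x Genomics 3′ libraries. The sources used here name neither the allele that carries tdTomato nor the number of pups in a library.

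There was 1 library per genotype, so no difference between genotypes has a replicate check and no p-value is given. Intervals below are 95% intervals for counting error alone, exact Clopper-Pearson for shares and exact Poisson for counts. The libraries held 85480826, 84016524 and 89917586 UMIs in control, Emx1-Cre and hGFAP-Cre, the order kept below, with a lowest barcode of 500, 2644 and 3065 UMIs. The median newborn neuron had 5925, 3450 and 4019 UMIs and 2492, 1620 and 1841.5 detected genes. The lower quartile of newborn neurons was 3117 UMIs with Emx1-Cre and 3489 with hGFAP-Cre, close to the lowest barcodes there, and how many such cells fell below was not measured. Xist, from the inactive X chromosome, stood at 1359, 0 and 0 CPM (a gene's UMIs scaled to a fixed total per library) in newborn neurons and the Y-linked Ddx3y at 0, 43.0 and 45.1, so sex and genotype cannot be told apart. The libraries shared 43, 47 and 54 barcode sequences pairwise, with 0 that were newborn neurons in both. Map2k1 was at 13.5, 6.14 and 7.65 CPM (72, 5 and 20 UMIs) while Map2k2 stood at 223, 189 and 229.8 CPM. Reads from the 3′ end can come from outside a deleted exon, and these levels therefore say nothing of the deletion.

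The given markers were higher in newborn neurons than in the other kept cells of all 3 libraries. Non-cycling cells with at least 2 Eomes UMIs and no Dlx2 or Reln, called Eomes cells, shared them, as given below. Rnd2, a small GTPase of migrating neurons, stood at 312, 446 and 496 CPM in newborn neurons against 102, 116 and 176 CPM in the other kept cells. Unc5d, a netrin receptor of multipolar neurons, was at 293, 195 and 324 CPM against 101, 48.6 and 93.1 CPM. Hs3st1, a heparan sulfate sulfotransferase, was at 103, 119 and 245 CPM against 53.5, 51.2 and 110 CPM. Each of these markers was thus higher in newborn neurons than in other cells of its library, and Hs3st1 was the weakest of them.

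Shares of cells with a UMI were also taken at a matched depth, after each cell was thinned at random to 3000 UMIs. Rnd2 was then seen in 50.8%, 66.4% and 74.2% of newborn neurons (65.6%, 76.5% and 84.5% before thinning). In microglia, which should lack it, the thinned share was 5.45%, 6.38% and 8.29%, with median depths of 11153, 5262 and 7182 UMIs before thinning. Unc5d was seen in 62.5%, 39.7% and 59.5% of thinned newborn neurons and in 6.18%, 6.03% and 8.29% of thinned microglia. In thinned Eomes cells Rnd2 was seen in 75.8%, 74.1% and 69.4% and Unc5d in 65.5%, 35.1% and 40.9%. Hs3st1 was seen in 26.7%, 25.3% and 50.4% of thinned newborn neurons and in 40.4%, 40.1% and 45.0% of thinned Eomes cells. These markers thus did not set newborn neurons above Eomes cells in every library. Neurod6, a later factor of excitatory neurons, was seen in 73.6%, 60.3% and 60.0% of thinned newborn neurons and in 61.3%, 19.6% and 36.6% of thinned Eomes cells. The vesicular glutamate transporter genes split by age: Slc17a6, the early one, was seen in 28.3%, 13.7% and 24.1%, and Slc17a7, the mature one, in 0.602%, 0.685% and 0.189% of thinned newborn neurons, a share as low as in microglia (0%, 0.709% and 0%).

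The genes with the highest levels in newborn neurons relative to other kept cells, over the 3 libraries, were Rnd2, Unc5d, Sema3c, Neurod2, Igfbpl1, Sstr2, Rbfox1, Lmo1, Sox11 and Kcnq3. Sema3c, a secreted guidance cue, was at 336, 321 and 301 CPM, close together in the 3 libraries. Igfbpl1, a secreted protein of newborn neurons, was at 2815, 4144 and 3955 CPM. Lmo1, a LIM-only transcriptional cofactor, was at 256, 383 and 384 CPM. These last 2 genes were higher in both mutants, whereas Rbfox1, a neuronal splicing factor, was lower, at 271, 109 and 128 CPM.

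Progenitor and astrocyte markers were present in many newborn neurons, and those of most other types were low. Radial glia markers summed to 1205, 1103 and 2571 CPM, against 10084, 9928 and 8456 CPM in other kept cells. With hGFAP-Cre this sum exceeded the 1593 CPM of the newborn neuron markers. Before thinning it was spread over 73.5% of the newborn neurons there and had 6.72% in its top cell. With Emx1-Cre 2 cells held 55.0% of the sum. After thinning, radial glia markers were seen in 70.9%, 52.1% and 64.6% of newborn neurons and in 59.6%, 66.3% and 54.0% of microglia. The Emx1-Cre share was thus below that of its microglia, and it alone does not separate these markers from stray RNA. Intermediate progenitor markers summed to 414, 382 and 449.7 CPM, near the 521, 293 and 542 CPM of other kept cells, and astrocyte markers to 941, 473 and 1158 CPM against 4841, 2352 and 3639 CPM. Of the astrocyte sums, 2 cells held 38.5%, 51.4% and 9.14%. Interneuron markers summed to 18.7, 3.68 and 41.3 CPM, with 6 of 9 at 0 in the Emx1-Cre library. Cajal-Retzius markers summed to 3.19, 38.1 and 11.1 CPM, microglia markers to 127, 60.2 and 152, oligodendrocyte precursor markers to 38.4, 24.6 and 32.5, endothelial to 30.9, 2.46 and 22.2, mural to 5.81, 86.0 and 34.0 and erythroid to 1.69, 3.68 and 1.53 CPM. Ependymal markers summed to 4.50, 211 and 15.3 CPM, and 2 cells held 69.2% of the Emx1-Cre sum. Of the microglia and mural marker sums in the Emx1-Cre library, 2 cells held 95.9% and 95.7%. Dentate granule markers summed to 1256, 1993 and 1336 CPM, nearly all of it Zbtb20 at 1252, 1986 and 1326 CPM, while Dsp and C1ql2 were at 0 and Prox1 was seen in 12, 3 and 9 cells. The sperm protein gene Prm1 was at 0, 0 and 174 CPM in newborn neurons and at 0, 0 and 87.2 CPM in microglia, a fact of the hGFAP-Cre library.

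The rule's exclusions fell unevenly on the 3 libraries. Cells with at least 2 Neurod1 UMIs numbered 1212, 502 and 1206, and 38.9%, 57.8% and 52.2% of them also held Eomes. Removal of these and of cells with the other 4 genes left 55.9%, 35.7% and 43.8%. At the threshold itself, 359, 120 and 326 newborn neurons had exactly 2 Neurod1 UMIs, and 840, 672 and 827 cells with 1 UMI stood just outside. Rnd2 was at 238, 495 and 515 CPM just inside and at 149, 310 and 399 CPM just outside. Unc5d was at 271, 185 and 319 CPM inside and at 209, 144 and 286 CPM outside, so neither marker broke off at the threshold. Only 77, 3 and 24 newborn neurons had 5 or more Neurod1 UMIs.

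Sequence upstream of 4 genes is shown because the values below turn on them and the letters that basic helix-loop-helix factors such as NEUROD1 bind, E-boxes, can be read there. They were chosen after the values were seen. Neurod2 and Cux2 were lower in both mutants, Etv5 was at 0 UMIs in 1 of them, and Tac2 had 1 UMI in the control. The sequences come from RefSeq on GRCm38.p6 and hold the 250 bases before the transcription start, 5′ to 3′ on the gene's strand. Capitals mark CAGATG, searched also as CATCTG on the other strand, and CAGCTG, which reads alike on both strands. Tac2 lies at chr10:127724228-127724477 on the plus strand. Neurod2 lies at chr11:98329646-98329895, Cux2 at chr5:122049852-122050101 and Etv5 at chr16:22439571-22439820, each on the minus strand, and the last 2 are 1 of 2 listed starts.
Tac2: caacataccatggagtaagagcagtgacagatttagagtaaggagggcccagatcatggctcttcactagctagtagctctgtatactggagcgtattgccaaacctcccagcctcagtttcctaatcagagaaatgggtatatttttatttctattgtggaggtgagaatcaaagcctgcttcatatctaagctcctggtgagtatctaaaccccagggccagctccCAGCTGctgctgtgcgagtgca
Neurod2: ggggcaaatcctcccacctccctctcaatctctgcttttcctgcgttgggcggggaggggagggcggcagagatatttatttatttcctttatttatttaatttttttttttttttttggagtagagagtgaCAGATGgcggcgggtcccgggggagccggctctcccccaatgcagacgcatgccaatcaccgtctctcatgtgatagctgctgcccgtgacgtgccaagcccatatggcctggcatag
Cux2: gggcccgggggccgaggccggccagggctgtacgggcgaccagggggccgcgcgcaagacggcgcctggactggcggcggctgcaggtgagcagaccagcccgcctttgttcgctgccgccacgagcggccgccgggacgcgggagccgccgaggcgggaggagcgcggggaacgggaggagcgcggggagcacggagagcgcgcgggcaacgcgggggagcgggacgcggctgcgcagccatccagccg
Etv5: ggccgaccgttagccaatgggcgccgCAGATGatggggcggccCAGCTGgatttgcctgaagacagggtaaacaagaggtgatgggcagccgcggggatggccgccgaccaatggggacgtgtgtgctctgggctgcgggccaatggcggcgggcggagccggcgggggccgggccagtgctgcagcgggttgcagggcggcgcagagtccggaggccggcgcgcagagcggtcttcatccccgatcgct
Tac2 held 1 CAGCTG and Neurod2 held 1 CAGATG, Etv5 held 1 of each and Cux2 held none. Of 32851 promoters of this length, 14.4% held CAGATG or its complement, 13.0% held CAGCTG and 25.5% held either, so a match is common and describes letters alone. A promoter was listed for 326 of the 444 genes in the lists or named.

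Newborn neurons were scarcer in both mutant libraries, most of all with Emx1-Cre. They made up 6.81% of kept control cells (6.32% to 7.32%), 1.36% of Emx1-Cre cells (1.17% to 1.57%) and 4.02% of hGFAP-Cre cells (3.69% to 4.37%). The share was 5.02-fold lower with Emx1-Cre and 1.69-fold lower with hGFAP-Cre, and the 3 intervals lay apart. The hGFAP-Cre share was 2.96-fold the Emx1-Cre one. Before the other 5 genes were applied, cells with at least 2 Neurod1 UMIs made up 12.2%, 3.803% and 9.18% of kept cells, 3.20-fold and 1.33-fold lower (2.62-fold and 1.19-fold after thinning). A rule that asks for 2 UMIs depends on depth, so it was repeated on cells thinned to 3000 UMIs, a depth reached by 92.3%, 87.2% and 100% of kept cells. The shares were then 3.84% (353 of 9191 cells, 3.46% to 4.25%), 0.921% (106 of 11509, 0.755% to 1.11%) and 2.74% (360 of 13135, 2.47% to 3.03%), 4.17-fold and 1.40-fold lower than in the control. With a minimum of 2000 genes the log2 ratios were −3.50 and −1.79 in place of −2.33 and −0.76, and with Neurod1 at 1 UMI or more the Emx1-Cre log2 ratio was −1.24.

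Cells on either side of this stage did not follow the same order. Non-cycling Eomes cells made up 4.29%, 5.81% and 11.0% of kept cells, higher in both mutants. Neurons with at least 2 UMIs of Neurod6 and none of Neurod1, Eomes, Mki67, Top2a, Dlx2 or Reln made up 17.7%, 16.4% and 12.8%. Microglia, which do not descend from cortical progenitors, made up 2.87%, 2.20% and 2.85%. These shares are parts of 1 sorted sample each, so a scarcer class and a more frequent other class cannot be told apart, and neither can the sort's take from each genotype.

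**Figure D1:**
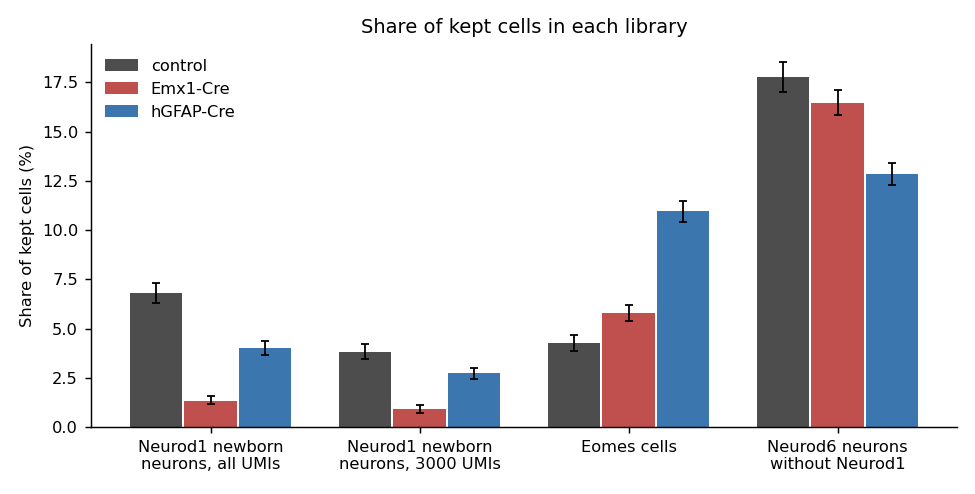
Share of kept cells (%, y axis) in each library for newborn neurons with all UMIs, newborn neurons after thinning to 3000 UMIs, Eomes cells and Neurod6 neurons without Neurod1, with bars for the 3 libraries and error bars for 95% Clopper-Pearson intervals. Newborn neurons stood at 6.81%, 1.36% and 4.02% and kept their order after thinning, while Eomes cells were highest in the hGFAP-Cre library at 11.0%.

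Levels within the newborn neurons were compared by summing their UMIs per library (5337127, 814203 and 2614876) and scaling to CPM. Genes that reached 10 CPM in either library were counted as higher or lower where log2(CPM + 5) differed by at least 1.5-fold. Over all 8707 genes so measured with Emx1-Cre, 9.02% were higher and 20.8% lower than in the control, with a median log2 ratio of −0.17. Over 8686 genes with hGFAP-Cre, 8.8% were higher and 15.1% lower, with a median of −0.07. Both comparisons use the same control library, so they are set side by side below and their likeness is not read as a result. List counts below are to be read against these shares.

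Neurogenic factors, the transcription and RNA-binding proteins that carry a progenitor to a neuron, gave 3 higher and 6 lower of 15 with Emx1-Cre (median −0.48) and 2 higher and 4 lower of 15 with hGFAP-Cre (median −0.32). Elavl3, an RNA-binding protein of early neurons, was at 592 CPM in the control (572 to 613), 252 with Emx1-Cre (218 to 289) and 275 with hGFAP-Cre (256 to 296). It was 2.35-fold and 2.15-fold lower, with intervals apart from the control's. Sox4, which acts with SOX11 in neuronal differentiation, was at 2437, 1260.1 and 1376 CPM, 1.93-fold and 1.77-fold lower. Neurod2, the next member of the NEUROD family, was at 571, 323 and 405 CPM, 1.77-fold and 1.41-fold lower. Bhlhe22, a repressor in projection neurons, was at 278, 194 and 148 CPM.

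The 3 higher members with Emx1-Cre included 2 genes of the step before Neurod1. Neurog2, which drives the switch from radial glia to neurogenesis, was at 9.18 CPM (49 UMIs), 29.5 CPM (24 UMIs) and 31.0 CPM (81 UMIs), 3.21-fold and 3.37-fold higher. Mfng, a Notch-modifying glycosyltransferase of intermediate progenitors, was at 10.9, 25.8 and 21.4 CPM. Both genes were low in every library, and the summed intermediate progenitor markers were close together at 414, 382 and 450 CPM.

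Of 26 migration genes, 1 was higher and 6 lower with Emx1-Cre (median −0.06, which turned to 0.11 when centred on the median of all genes) and 3 higher and 7 lower with hGFAP-Cre (median −0.27). The higher share was thus below that over all genes with Emx1-Cre, and the lower share near it. Guidance receptors were among the lower ones. Plxna4, a semaphorin receptor, was at 252, 97.0 and 132 CPM, 2.60-fold and 1.91-fold lower. Robo2, a Slit receptor, was at 166, 73.7 and 106 CPM. Members of the Reelin pathway differed by mutant: the receptor gene Lrp8 was at 222, 95.8 and 192 CPM, and the adaptor gene Dab1 at 155, 76.1 and 42.8 CPM, lowest with hGFAP-Cre.

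Other migration genes stood higher in one or both mutants. Cxcr4, the receptor for CXCL12 that steers progenitors and newborn neurons in the subventricular zone, was at 3.37 CPM (2.00 to 5.33), 22.1 CPM (13.1 to 34.9) and 26.8 CPM (20.9 to 33.8), on 18, 18 and 70 UMIs. It was 6.56-fold and 7.94-fold higher than in the control. Rnd3, a related small GTPase, was at 36.3, 38.1 and 96.8 CPM, higher in the hGFAP-Cre library. Nrp1, a semaphorin co-receptor, was at 280.3, 341 and 133 CPM, lower with hGFAP-Cre by 2.11-fold.

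Upper-layer identity genes were lower in both mutants and none was higher. Of 15 measured genes, 0 were higher and 11 lower with Emx1-Cre (median −0.91) and 0 higher and 9 lower with hGFAP-Cre (median −0.70). Pou3f1, a POU factor of upper-layer neurons (ENSMUSG00000090125, chr4:124656807-124660655), was at 556 CPM (536 to 576), 145 (120.0 to 174) and 190.1 (174 to 208), 3.83-fold and 2.92-fold lower. Lmo4, a LIM-only cofactor of callosal neurons, was at 461, 161 and 159 CPM, 2.86-fold and 2.90-fold lower. For both genes the mutants lay far below the control and near each other.

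The CUX factors were lower in both mutants, and lowest with Emx1-Cre. Cux2, a homeodomain factor of upper-layer neurons, was at 77.8 CPM (70.5 to 85.6), 22.1 (13.1 to 34.9) and 50.9 (42.6 to 60.3), 3.52-fold and 1.53-fold lower. Cux1, its paralog, was at 153, 49.1 and 91.8 CPM. For Cux2 the 3 intervals lay apart. At 3000 UMIs it was seen in 22.3%, 3.42% and 14.8% of newborn neurons against 2.18%, 2.48% and 2.41% of microglia, so the Emx1-Cre share stood near that of its microglia.

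Other factors of the list differed in size. Limch1, an actomyosin regulator, was at 98.0, 27.0 and 42.4 CPM, and Pou3f2, a POU factor, at 689, 296 and 568 CPM. Lhx2, a LIM-homeodomain factor of the cortical primordium, was at 572, 321 and 433 CPM. Their levels were lower with Emx1-Cre, and with hGFAP-Cre Pou3f2 and Lhx2 were within 1.5-fold of the control. Pou3f3, also a POU factor, was within 1.5-fold of the control, at 644, 524 and 702 CPM. Mef2c and Inhba were lower as well and are taken up below with the cells that carry them.

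**Figure D2:**
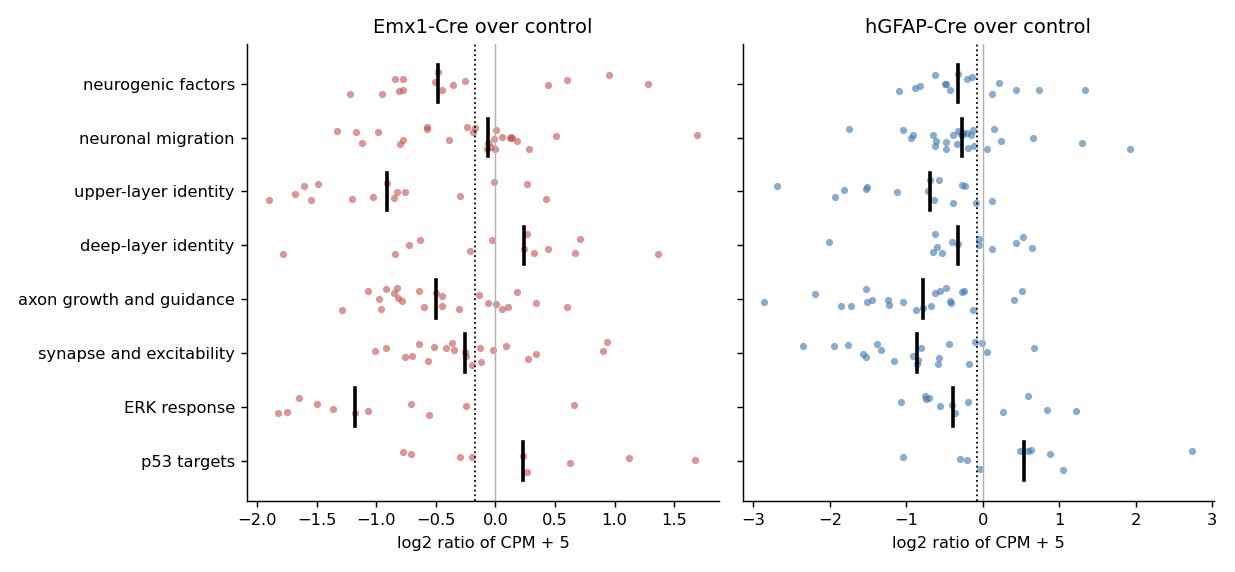
Each point is 1 gene of a list in newborn neurons at its log2 ratio of CPM + 5 (x axis), mutant over control, with Emx1-Cre on the left and hGFAP-Cre on the right and lists on the y axis. Black bars are list medians and the dotted line is the median over all genes measured (−0.17 and −0.07). The upper-layer points lie mostly left of 0, with medians of −0.91 and −0.70, and the p53 target medians lie right of it, at 0.23 and 0.54.

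A minority of newborn neurons held genes of later neurons, and it was not evenly spread. Nefl and Nefm, which encode neurofilament subunits, and Nrgn, a postsynaptic calmodulin-binding protein, mark neurons beyond this stage. At least 1 of the 3 was seen in 102 of 678 control cells (15.0%, 12.4% to 17.96%), 20 of 179 Emx1-Cre cells (11.2%, 6.96% to 16.7%) and 15 of 528 hGFAP-Cre cells (2.84%, 1.60% to 4.64%). At 3000 UMIs the shares were 11.0%, 9.59% and 2.27%, and in microglia 1.45%, 8.51% and 0.535%. The Emx1-Cre share lay within the counting interval of its own microglia (5.53% to 12.4%), so this share alone does not separate such cells from stray RNA. Doublets, barcodes that hold more than a single cell, were kept, and their part in this minority is not given here. The split was chosen after the values were seen.

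These cells were deeper and carried the late neuronal genes. Their median depth was 13191.5, 6464 and 10738 UMIs, against 5810, 3415 and 4008 UMIs in the other newborn neurons. Mef2c, a factor of maturing excitatory neurons, was at 3350.3, 3057 and 1896 CPM in them and at 108, 105 and 71.9 CPM in the others. Syt1, the calcium sensor of synaptic vesicles, was at 231, 195 and 92.7 CPM against 12.6, 16.7 and 7.27 CPM. Rnd2 ran the other way, at 125, 143 and 228 CPM in these cells and at 398, 517 and 511 CPM in the others. Neurod1 was at 184, 299 and 257 CPM against 461, 594 and 543 CPM. Neurod1 chose the cells, and its threshold in UMIs allows a lower CPM in deeper cells, so these values are a description alone.

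Whether a difference between genotypes rests on this minority was therefore measured gene by gene. Over all newborn neurons Mef2c stood at 1125, 663 and 169.8 CPM, log2 ratios of −0.76 and −2.69, and without the minority the log2 ratios were −0.05 and −0.56. The Emx1-Cre log2 ratio of Mef2c turned to 1.22 without cells that held other types' markers, 0.16 with at least 2000 genes and 0.059 after thinning. Inhba, a subunit of activin, was at 27.5, 12.3 and 4.21 CPM over all and at 7.10, 9.09 and 3.23 CPM without the minority, where its log2 ratios were 0.22 and −0.56. Gap43, a growth-cone protein, stood at 771, 435 and 102 CPM over all, and at 224, 206 and 73.1 CPM without it, so the Emx1-Cre log2 ratio went from −0.82 to −0.12 and the hGFAP-Cre one from −2.86 to −1.55. Without cells that held other types' markers the Emx1-Cre one was 0.43. Pou3f1 kept its place without the minority, at 491, 119.7 and 189 CPM, log2 ratios of −1.99 and −1.36. Cux2 was then at 91.5, 21.2 and 51.7 CPM, still lower in the mutants. Without the minority the upper-layer list had 0 higher and 9 lower of 14 with Emx1-Cre (median −0.97) and 0 higher and 8 lower of 14 with hGFAP-Cre (median −0.71), beside 22.9% and 14.2% lower over all genes.

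**Figure D3:**
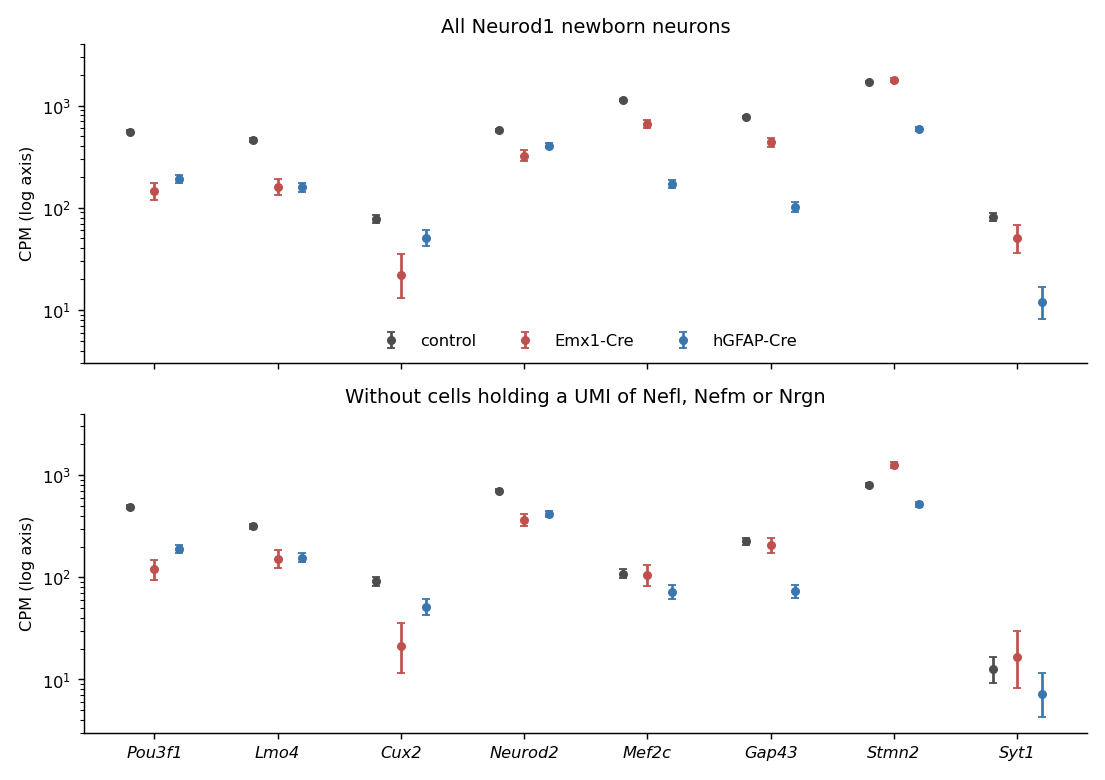
Levels (CPM, log axis) of 8 genes in all newborn neurons (top) and in those without a UMI of Nefl, Nefm or Nrgn (bottom), by library, with 95% Poisson intervals as bars. Pou3f1, Lmo4, Cux2 and Neurod2 stay highest in the control in the lower panel, while Mef2c goes from 1125, 663 and 169.8 CPM to 108, 105 and 71.9 CPM.

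Axon growth and guidance genes were lower in both mutants and more so with hGFAP-Cre. Of 23 measured, 1 was higher and 11 lower with Emx1-Cre (median −0.50), and 0 were higher and 14 lower with hGFAP-Cre (median −0.78). Dpysl3, a collapsin response mediator of growth cones, was at 907, 464 and 385 CPM, 1.95-fold and 2.35-fold lower. L1cam, an axonal adhesion molecule, was at 97.6, 52.8 and 23.3 CPM, and Sema7a, a membrane semaphorin, at 23.6, 8.60 and 4.97 CPM. Stmn2, a microtubule regulator of growing axons, was level with the control in Emx1-Cre and lower in hGFAP-Cre, at 1716, 1783 and 593 CPM.

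Part of this list's difference went with the mature minority. Without those cells 2 genes were higher and 9 lower of 21 with Emx1-Cre, at a median of −0.24, and 0 were higher and 10 lower of 22 with hGFAP-Cre, at a median of −0.52. Stmn2 was then at 799, 1249.7 and 517 CPM. Ntm and Cntn1, adhesion molecules of the immunoglobulin family, were at 179, 102 and 35.2 CPM and at 52.1, 18.4 and 12.2 CPM over all newborn neurons. A single cell held 53.3% of the 15 Cntn1 UMIs in the Emx1-Cre library, and without the minority the Cntn1 log2 ratios were 0.04 and 0.49 in place of −1.29 and −1.73.

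Synapse and excitability genes, most of them genes of later neurons, had 2 higher and 5 lower of 21 with Emx1-Cre (median −0.25, which turned to 0.19 without cells that held other types' markers) and 1 higher and 13 lower of 20 with hGFAP-Cre (median −0.86). Grin2b, the NMDA receptor subunit of immature neurons, was at 225, 117 and 62.7 CPM, 1.93-fold and 3.59-fold lower. Syt4, a synaptotagmin, was at 251, 210.0 and 61.2 CPM, and Grm5, a metabotropic glutamate receptor, at 21.2, 20.9 and 3.82 CPM. Scn3a, the fetal sodium channel, was at 92.0, 43.0 and 60.0 CPM.

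The channel gene Kcnq3 went against the rest in the Emx1-Cre library, at 98.9, 189 and 97.9 CPM. Gria1, an AMPA receptor subunit, was higher in both, at 14.2, 31.9 and 25.6 CPM. Without the mature minority the list had 3 higher and 4 lower of 19 with Emx1-Cre (median −0.16) and 0 higher and 10 lower of 19 with hGFAP-Cre (median −0.59). The hGFAP-Cre neurons thus had the fewest mature cells and, among the rest, still lower axon and synapse gene medians than the −0.09 over all genes.

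Deep-layer identity showed no common direction over all newborn neurons, with 3 higher and 4 lower of 13 for Emx1-Cre (median 0.24) and 1 higher and 4 lower of 13 for hGFAP-Cre (median −0.32). Without the mature minority 5 were higher and 4 lower of 13 for Emx1-Cre (median 0.08). For hGFAP-Cre 1 was then higher and 1 lower of 12 (median 0.24). Tbr1, a factor of early-born corticothalamic neurons that newborn neurons of later ages also express, was at 145, 78.6 and 158 CPM. Fezf2, the determinant of subcerebral neurons, was at 44.2, 54.0 and 26.8 CPM, and Ldb2, a LIM cofactor, at 54.0, 30.7 and 9.56 CPM. Nxph3, a neurexin ligand of deep-layer neurons, had 65, 0 and 57 UMIs, which is 12.2, 0 and 21.8 CPM. Against a floor of 3 UMIs it was at least 3.31-fold lower with Emx1-Cre, and it was 1.79-fold higher with hGFAP-Cre. Crym, a thyroid hormone binding protein, was at 12.2, 39.3 and 6.88 CPM, and 1 cell held 40.6% of its Emx1-Cre UMIs. Zfpm2, a cofactor of GATA factors, was at 14.2, 7.37 and 7.27 CPM.

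Patterning genes of the pallium had 2 higher and 3 lower of 14 with Emx1-Cre (median −0.12) and 2 higher and 2 lower of 14 with hGFAP-Cre (median −0.01). Wnt7b, a WNT ligand, was at 72.9, 23.3 and 39.8 CPM, 3.12-fold and 1.83-fold lower. Emx1, a dorsal homeobox gene whose regulatory sequence drives Cre in the Emx1-Cre line, was at 87.7, 47.9 and 136 CPM, lower in that library and higher in the other. Zbtb20, a factor of hippocampal and of late-born neurons, was at 1252, 1986 and 1326 CPM, 1.59-fold higher with Emx1-Cre, while the dentate markers Dsp and C1ql2 were at 0 in all 3 libraries. Nr2f2, a nuclear receptor of caudal cortex, was at 14.8, 12.3 and 25.6 CPM.

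Tac2 (ENSMUSG00000025400, chr10:127724478-127731768), which encodes the neuropeptide neurokinin B, set the mutant newborn neurons apart from the control more than any other gene in the lists on log2(CPM + 5), with ratios of 4.72 and 5.81. It had 1 UMI in the control (0.187 CPM), 107 in the Emx1-Cre library (131 CPM, 108 to 159) and 749 in the hGFAP-Cre library (286 CPM, 266 to 308). The ratio to the control was 701-fold with Emx1-Cre (counting interval 123 to 27959) and 1529-fold with hGFAP-Cre (274 to 60462). It was spread over many cells: 27 of 179 Emx1-Cre neurons (15.1%, 10.2% to 21.2%) and 83 of 528 hGFAP-Cre neurons (15.7%, 12.7% to 19.1%) held a UMI, against 1 of 678 in the control.

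The stage before held Tac2 as well. At 3000 UMIs it was seen in 0%, 15.1% and 14.6% of newborn neurons, where 0 of 664 control cells allow up to 0.554%. In Eomes cells it was seen in 0.235%, 26.1% and 12.9%, in Neurod6 neurons without Neurod1 in 0.242%, 1.70% and 3.32% and in microglia in 0%, 1.42% and 1.34%. In both mutants the share was thus much higher in Eomes cells and newborn neurons than in the microglia of the same library.

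Calb2 (chr8:110137502-110168210), which encodes the calcium-binding protein calretinin, was higher in both mutants too and followed another course. It was at 95.6 CPM (87.4 to 104), 248 (215 to 285) and 829.9 (795 to 866), 2.60-fold and 8.68-fold higher. It was seen in 88, 43 and 180 newborn neurons (13.0%, 24.0% and 34.1%). At 3000 UMIs the shares were 9.34%, 21.9% and 31.6% in newborn neurons, 3.52%, 3.52% and 3.96% in Eomes cells, 9.26%, 21.7% and 25.6% in Neurod6 neurons and 2.55%, 4.26% and 3.74% in microglia. Calb2 in Eomes cells was thus near the microglial share in every library, and the libraries lay apart in newborn neurons and Neurod6 neurons.

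The overlap of the genes in single cells differed in size between the mutants, a difference that was not tested. Of the Tac2-positive newborn neurons, 4 of 27 held Calb2 with Emx1-Cre (14.8%) and 62 of 83 with hGFAP-Cre (74.7%). In the hGFAP-Cre library Calb2 was at 2099 CPM in Tac2-positive and 596 CPM in the other newborn neurons, and in the Emx1-Cre library at 204 and 255 CPM. The Tac2-positive cells kept Rnd2, at 540.02 and 705 CPM in Emx1-Cre and hGFAP-Cre. Pou3f1 was at 97.4 CPM (48.6 to 174) and 56.5 CPM (35.8 to 84.7) in them, against 153 CPM (125 to 184) and 215 CPM (196 to 235) in Tac2-negative cells, with intervals apart in the hGFAP-Cre library alone. Gad1, an enzyme of GABA synthesis, and the Cajal-Retzius markers Trp73 and Lhx1 were at 0 UMIs in them. Of the other interneuron markers measured there, Gad2 had 8 UMIs (19.6 CPM, 8.48 to 38.7) and Dlx1 had 1 UMI in the hGFAP-Cre library, and both were at 0 with Emx1-Cre.

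**Figure D4:**
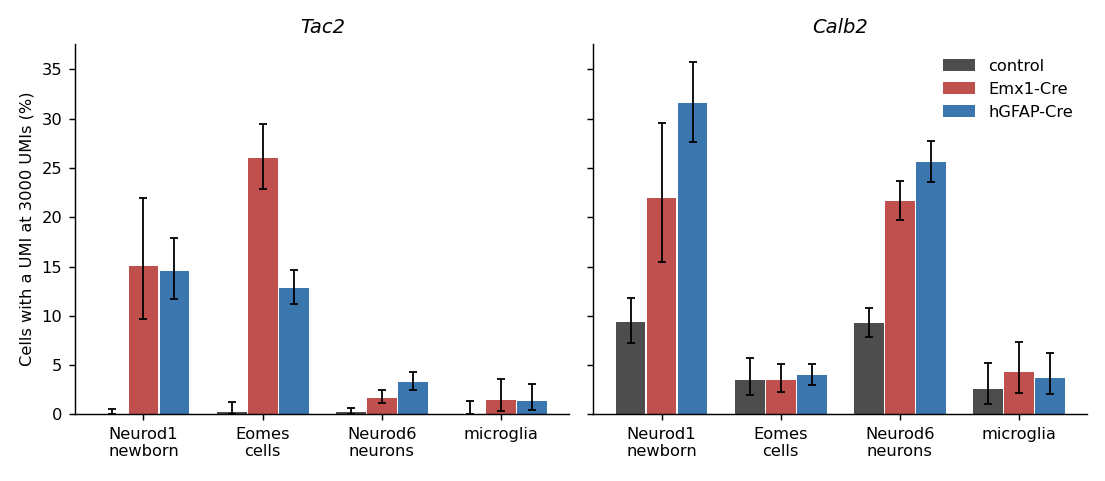
Share of cells with a UMI (%, y axis) of Tac2 (left) and Calb2 (right) after thinning to 3000 UMIs, by cell class and library, with 95% Clopper-Pearson intervals. Tac2 stands at 15.1% and 14.6% in mutant newborn neurons and at 26.1% in Emx1-Cre Eomes cells, and Calb2 at 21.9% and 31.6% in mutant newborn neurons but at 3.52% and 3.96% in mutant Eomes cells.

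Of 12 neuropeptide genes, 4 reached 10 CPM in either comparison. Besides Tac2 these were Npy, which encodes neuropeptide Y, at 43.8, 2.46 and 4.21 CPM, on 234, 2 and 11 UMIs. Its ratio to the control was 0.0560 (0.00675 to 0.205) with Emx1-Cre, and with hGFAP-Cre it was 10.4-fold lower, a difference that was reversed to a log2 ratio of 0.19 without the mature minority. Cck, the cholecystokinin gene, was at 146, 152 and 48.6 CPM. Grp, the gastrin-releasing peptide gene, was at 121, 179 and 117 CPM.

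ERK response genes, transcriptional targets and feedback inhibitors of the pathway, were the lowest list with Emx1-Cre. Of 11 measured, 1 was higher and 8 lower (median −1.18), whereas with hGFAP-Cre 3 were higher and 4 lower of 12 (median −0.38). Etv5, an ETS factor induced by FGF signalling, had 57, 0 and 12 UMIs (10.7, 0 and 4.59 CPM), at least 2.90-fold lower with Emx1-Cre against the floor of 3 UMIs and 2.33-fold lower with hGFAP-Cre, with log2 ratios of −0.25 and −0.0045 after thinning in place of −1.65 and −0.71. Spred3, an inhibitor of RAF activation, had 68, 0 and 9 UMIs (12.7, 0 and 3.44 CPM). It was at least 3.46-fold lower with Emx1-Cre against that floor, and 3.702-fold lower with hGFAP-Cre. Etv1, a related ETS factor, had 107, 2 and 44 UMIs (20.05, 2.46 and 16.8 CPM), a ratio to the control of 0.123 with Emx1-Cre (0.0146 to 0.454).

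Feedback genes with more reads pointed the same way. Dusp4, an ERK phosphatase, was at 23.0 CPM (19.2 to 27.5), 4.91 (1.34 to 12.6) and 16.8 (12.2 to 22.6). Spry2, a Sprouty inhibitor, was at 36.3, 11.1 and 22.9 CPM, 3.29-fold and 1.58-fold lower. Spred2 was at 34.1, 12.3 and 18.4 CPM, 2.78-fold and 1.86-fold lower. In each of these 3 genes the hGFAP-Cre level lay between the control and Emx1-Cre levels.

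Other ERK response genes went both ways with hGFAP-Cre. Ier3, a stress-induced survival gene, had 57, 2 and 60 UMIs (10.7, 2.46 and 22.9 CPM), a ratio to the control of 0.230 with Emx1-Cre (0.0272 to 0.870) and 2.15 with hGFAP-Cre. Phlda1, a pleckstrin-homology gene, was at 7.49, 14.7 and 24.1 CPM, and 1 cell held 6 of its 12 Emx1-Cre UMIs. Myc was at 12.6, 9.83 and 5.35 CPM, lower with hGFAP-Cre. Without the mature minority the list had 1 higher and 7 lower of 8 with Emx1-Cre (median −1.28) and 2 higher and 3 lower of 9 with hGFAP-Cre (median 0.14), so the hGFAP-Cre median changed sign. All these genes are low, so their differences rest on few UMIs. The kinases and adaptors of the cascade itself were mostly level: of 18, 0 were higher and 3 lower with Emx1-Cre (median −0.29), and 0 were higher and 1 lower with hGFAP-Cre (median −0.09).

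Of p53 target genes, 3 were higher and 2 lower of 9 with Emx1-Cre (median 0.23, which turned to −0.10 as the mean of each cell's CPM) and 5 higher and 1 lower of 10 with hGFAP-Cre (median 0.54). Cdkn1a, which encodes the cell cycle inhibitor p21, was at 6.56 CPM (4.57 to 9.12), 31.9 (20.9 to 46.8) and 72.3 (62.3 to 83.4), 4.87-fold and 11.0-fold higher. With cells thinned before the rule the Emx1-Cre log2 ratio was −0.04 in place of 1.68. Microglia stood at 133, 96.2 and 360.3 CPM of Cdkn1a, so it was higher in the hGFAP-Cre library outside the targeted lineage too. Bbc3, the pro-apoptotic BH3 protein PUMA, was at 31.7, 74.9 and 62.7 CPM, 2.37-fold and 1.98-fold higher, and at 24.0, 16.6 and 26.1 CPM in microglia. Phlda3, an AKT inhibitor, was at 13.9, 17.2 and 34.0 CPM, while the nuclease gene Aen, at 41.4, 22.1 and 32.9 CPM, and the kinase gene Plk2, at 55.6, 44.2 and 24.5 CPM, were lower in a mutant.

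Of the remaining lists, sterol synthesis, glycolysis and hypoxia, and interferon stood apart from the shares over all genes in one or both mutants. Sterol synthesis had 0 higher and 6 lower of 15 in each comparison (medians −0.55 and −0.49), with Hmgcs1, an early enzyme of the pathway, at 282, 139 and 130.03 CPM. Without the mature minority sterol synthesis had 0 higher and 1 lower of 15 with Emx1-Cre (median −0.13). With hGFAP-Cre it then had 1 higher and 0 lower of 15 (median 0.15). Glycolysis and hypoxia had 0 higher and 1 lower of 13 with Emx1-Cre (median −0.03) and 0 higher and 6 lower of 13 with hGFAP-Cre (median −0.54). Without the mature minority this list had 3 higher and 0 lower of 13 with Emx1-Cre (median 0.28). With hGFAP-Cre it then had 0 higher and 2 lower of 13 (median 0.09). Immediate early genes had 3 higher and 2 lower of 13 (median 0.02) and 2 higher and 1 lower of 14 (median 0.14). Chaperones had 1 higher and 1 lower of 10 in each (medians −0.22 and −0.31). Interferon and antigen presentation had 1 higher and 1 lower of 3 with Emx1-Cre and 4 higher and 0 lower of 5 with hGFAP-Cre (median 0.96). NOTCH pathway genes had 1 higher and 3 lower of 11 (median −0.07) and 2 higher and 0 lower of 11 (median 0.11). The integrated stress response had 0 higher and 2 lower of 9 (median −0.18) and 1 higher and 2 lower of 9 (median 0.01), and cell cycle and exit genes 2 higher and 1 lower of 9 in each (medians 0.04 and 0.17).

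Outside the lists, the lowest genes at 50 CPM or more included Nefl, Nefm and Nrgn, the genes of the mature minority. The neurofilament genes Nefl, at 129.8, 9.83 and 1.15 CPM, and Nefm, at 86.0, 9.83 and 1.53 CPM, were seen in 39, 5 and 2 cells and in 57, 3 and 4 cells. With 3 UMIs in the hGFAP-Cre library, the Nefl ratio to the control was 0.00884 (0.00182 to 0.0259). Nrgn was at 451, 169 and 63.1 CPM, with an Emx1-Cre log2 ratio that turned from −1.39 to 1.73 without cells that held other types' markers. Shank1, a postsynaptic scaffold, was at 82.3, 13.5 and 11.5 CPM, 6.09-fold and 7.17-fold lower. Nos1, neuronal nitric oxide synthase, was at 69.1, 7.37 and 32.5 CPM, and Dync1i1, a dynein chain of neurons, at 60.7, 20.9 and 5.74 CPM. Without the mature minority the Dync1i1 log2 ratios were −0.015 and −0.093.

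The other low genes were of mixed function. Mfge8, a phagocytosis bridge of glia, was at 68.2, 6.14 and 47.4 CPM, Rangap1, of nuclear transport, at 60.5, 12.3 and 16.1 CPM, and Pabpn1, a poly(A)-binding protein, at 137, 33.2 and 67.3 CPM. Sepp1, the selenium carrier, was at 55.3, 1.23 and 20.3 CPM, and 1 cell held 48.8% of the control UMIs. With 1 UMI in the Emx1-Cre library its ratio to the control was 0.0222 (0.000561 to 0.125). The non-coding RNA Meg3 was at 362, 155 and 54.7 CPM. PISD, a gene of mitochondrial lipid synthesis, was at 93.5, 22.1 and 4.59 CPM, and Cwc22, a splicing factor, at 158, 106 and 24.5 CPM. In microglia PISD was at 147, 17.1 and 9.58 CPM and Cwc22 at 116, 73.5 and 22.5 CPM, so both were lower there too.

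The highest genes in the hGFAP-Cre comparison were Calb2 and several genes that progenitors or glia express. Radial glia markers were also highest in that library's newborn neurons, at 2571 CPM against 1205 in the control, and their part in these differences was not tested. Dbi, the acyl-CoA-binding protein of progenitors and astrocytes, was at 398 CPM (381 to 415), 1075 (1005 to 1148) and 1745 (1695 to 1797), 2.70-fold and 4.39-fold higher, and at 467, 1417 and 1812 CPM in microglia. Its lowest log2 ratios were 0.24 with Emx1-Cre, without cells that held ependymal markers, and 0.44 with hGFAP-Cre, after thinning, both under the 1.5-fold bound. Cd9, a tetraspanin, was at 95.0, 318 and 397 CPM, 3.35-fold and 4.18-fold higher, and in microglia at 1203, 1169 and 1064 CPM. Id3, an inhibitor of basic helix-loop-helix factors, was at 25.7, 118 and 156 CPM, and S100a6, a calcium-binding protein, at 4.50, 45.4 and 87.6 CPM. The Id3 log2 ratios of 2.00 and 2.39 turned to −0.59 with Emx1-Cre at 3 or more Neurod1 UMIs, and with hGFAP-Cre to −0.81 after thinning and −0.47 without cells that held other types' markers. S100a6 went down to 0.035 with Emx1-Cre and 0.59 with hGFAP-Cre over the settings tried. In microglia Id3 was at 27.7, 259 and 82.9 CPM and S100a6 at 3.43, 54.7 and 250.03 CPM. Adra2c, an adrenergic receptor, was at 5.996, 29.5 and 56.2 CPM, Uaca, a regulator of apoptosis, at 7.87, 34.4 and 50.5 CPM, and S100a13 at 8.06, 14.7 and 53.5 CPM. A single cell held 51.4% of the S100a6 and 58.3% of the S100a13 UMIs of the Emx1-Cre library. Of these 8 genes Cd9 was thus level in microglia, while Dbi, Id3 and S100a6 were higher there too in both mutants.

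The highest genes in the Emx1-Cre comparison came from very few cells. The cilium genes Dynlrb2 and Meig1 were at 97.0 and 86.0 CPM in 6 and 7 Emx1-Cre cells, against 0.375 CPM (2 UMIs) and 0.749 CPM (4 UMIs) in the control. The Dynlrb2 ratio was 259 (69.3 to 2175), and it was at 70.7 CPM in the microglia of the Emx1-Cre library. The myelin gene Mbp was at 11.99, 68.8 and 7.27 CPM, and 1 cell held 92.9% of its Emx1-Cre UMIs. A single cell held 55.1% of Mt1 (69.3, 446 and 263 CPM), 49.2% of Riiad1 (5.06, 74.9 and 27.5 CPM) and 32.8% of Tmem107 (10.1, 78.6 and 20.7 CPM). S100a11, a calcium-binding protein, was more widely spread, at 2.81, 59.0 and 30.6 CPM in 13, 17 and 32 cells. Ependymal markers were high in the same library, as given above, and without cells that held at least 2 UMIs of them the Mt1 and Riiad1 log2 ratios were −0.32 and −0.15 in place of 2.60 and 2.99.

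The medians of the main lists were also taken in the classes on either side and in microglia. The upper-layer median was −0.91 and −0.70 in newborn neurons for Emx1-Cre and hGFAP-Cre, −0.90 and −0.89 in Eomes cells and −0.92 and −0.50 in Neurod6 neurons, against 0.03 and −0.49 in microglia. The ERK response median was −1.18 and −0.38 in newborn neurons, −1.04 and −0.55 in Eomes cells and −0.68 and −0.38 in Neurod6 neurons, against 0.28 and −0.07 in microglia. The axon growth median was −0.50 and −0.78, −0.61 and −0.81, and −0.28 and −0.51, against 0.56 and −0.33. The p53 target median was 0.23 and 0.54, 0.10 and 0.58, and 0.17 and 0.53, against −0.44 and 0.16. Eomes cells and Neurod6 neurons thus had the same signs as newborn neurons in these lists. Microglia had the opposite sign in all 4 lists with Emx1-Cre and the same sign with hGFAP-Cre, where their upper-layer median was close to that of Neurod6 neurons.

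**Figure D5:**
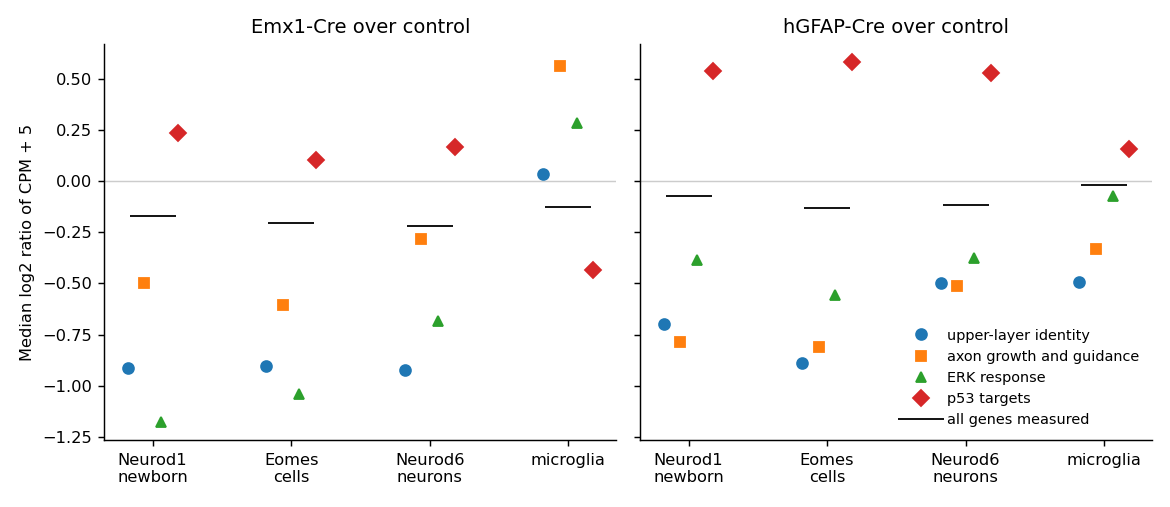
Median log2 ratio of CPM + 5 (y axis), mutant over control, of 4 gene lists (points) and of all genes measured (black bars) in newborn neurons, Eomes cells, Neurod6 neurons and microglia (x axis), with Emx1-Cre on the left and hGFAP-Cre on the right. Newborn neurons, Eomes cells and Neurod6 neurons lie below 0 for upper-layer identity in both panels (−0.91, −0.90 and −0.92 with Emx1-Cre), and microglia lie near 0 with Emx1-Cre at 0.03.

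Newborn neurons with and without a Neurod6 UMI at 3000 UMIs were also compared. Before thinning Neurod6 was seen in 87.3%, 66.5% and 68.8% of newborn neurons, and after it in 73.6%, 60.3% and 60.0%. Cells without it thus include some that lost it in thinning, and the subsets are not read as stages. Those without a Neurod6 UMI made up 26.4%, 39.7% and 40.0% of thinned newborn neurons. The upper-layer median with Emx1-Cre was −1.22 in those without and −0.95 in those with Neurod6, and with hGFAP-Cre −0.85 and −0.76. The ERK response median was −1.06 and −1.15 with Emx1-Cre and −0.34 and −0.37 with hGFAP-Cre. Calb2 was at 78.1, 264 and 429.7 CPM without and at 109, 269 and 1223 CPM with Neurod6. The upper-layer and ERK response medians thus held the same sign in both subsets, while some other medians did not. With Emx1-Cre the deep-layer median was 0.28 without and −0.33 with Neurod6, and the immediate early median −0.31 and 0.44.

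The mutants were also compared directly, without the control. Of 8503 genes, 10.9% were at least 1.5-fold higher and 7.06% lower in hGFAP-Cre than in Emx1-Cre newborn neurons, with a median log2 ratio of 0.08. ERK response genes had 5 higher and 0 lower of 8 (median 0.81). Synapse and excitability genes had 1 higher and 12 lower of 21 (median −0.74), axon growth genes 1 higher and 9 lower of 22 (median −0.43) and deep-layer genes 2 higher and 6 lower of 12 (median −0.64). Upper-layer genes had 3 higher and 4 lower of 15 (median 0.16), with Cux2 at 22.1 and 50.9 CPM and Mef2c at 663 and 169.8 CPM on opposite sides. Tac2 was at 131 and 286 CPM and Calb2 at 248 and 829.9 CPM, both higher with hGFAP-Cre.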

How the data were processed

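Of mouse dorsal cortex at postnatal day 2, 3 droplet libraries were analysed, 1 per genotype. The values were raw UMI counts per gene and barcode, which the authors made with Cell Ranger 5.0.0, per the file headers, on mm10, per the submitters' processing notes, with 27998 features and 0 columns left unmapped. Total counts per library were 85480826, 84016524 and 89917586. The members, 19 gene lists and 13 marker lists were chosen with earlier results of these data known. Doublets were kept, as the rule says. Scrublet in scanpy 1.11.5 (expected rate 10%) called 31, 11 and 47 newborn neurons, which were left out as an alternative.

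UMIs were summed over newborn neurons, scaled to CPM and compared on log2(CPM + 5) among genes that reached 10 CPM on either side, with 1.5-fold as the bound. Eomes cells had at least 2 Eomes UMIs and no Mki67, Top2a, Dlx2 or Reln. Neurod6 neurons had at least 2 Neurod6 UMIs and no Neurod1, Eomes, Mki67, Top2a, Dlx2 or Reln. Microglia had at least 5 UMIs summed over 5 marker genes. With 1 library per genotype no test was possible. Thinning drew 3000 UMIs per cell. A level of 0 was compared at a floor of 3 counts per library. The ratio and 1.5-fold steps were tested on simulated gene totals with known fold changes, and the thinning step on simulated counts. The summing of cells and the choice of newborn neurons were not tested in this way.

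Genes were named by a rule: the targets, the given markers, up to 4 members per list with the largest ratio, the 8 highest and 8 lowest outside the lists at 50 CPM or more, and the 10 highest over other kept cells. Lmo4, Pou3f2, Pou3f3, Stmn2, Spry2, Spred2, Hmgcs1, the markers and transporters checked, the Nefl, Nefm and Nrgn split and the promoters were chosen after their values were seen. Other processing choices were tried, 15 set with the tests and 3 chosen after seeing the data. Python 3.11.15, numpy 2.4.6, scipy 1.17.1, pandas 2.3.3 and matplotlib 3.10.9 were used. A few genes that the rule names are not reported here.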

Additional observations from a re-analysis of the deposited data

Results flagged for a closer look

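For 3 genes the newborn neurons of the mutant libraries stood on opposite sides of the control, and the difference between the mutants was not tested. Nxph3, a neurexin ligand, had log2 ratios of −1.78 with Emx1-Cre and 0.64 with hGFAP-Cre. The homeobox gene Emx1 had −0.81 and 0.61, and the stress gene Ier3 had −1.07 and 0.83. Nxph3 and Ier3 rest on 0 and 2 UMIs in the Emx1-Cre library.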

How the results depend on the processing

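No paired analysis was possible because there was 1 library per genotype, and for the same reason no replicate could be left out. The 3 alternatives chosen after seeing the data left out Tac2-positive cells, cells with at least 2 UMIs of ependymal markers, and cells with a UMI of Nefl, Nefm or Nrgn. The cause of the changes below was not tested. All values are log2 ratios unless called counts. The newborn neuron share was lower than in the control in both mutants under each alternative run. For Emx1-Cre it was −3.50 with at least 2000 genes, −1.24 with Neurod1 at 1 UMI or more and −2.84 at 3 or more. For hGFAP-Cre it was −1.79 with at least 2000 genes, −1.06 with Neurod1 at 3 or more, −0.49 after thinning and −1.004 without Tac2-positive cells.

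The count of genes higher with Emx1-Cre, 785, was 427 with a pseudocount of 20 CPM, 307 among genes at 50 CPM, 1226 among all genes with a UMI, 1449 with at least 2000 genes, 1199 with Neurod1 at 3 or more and 1219 when centred. The count of lower genes, 1815, was 782, 663 and 1125 with that pseudocount, at 50 CPM and when centred. With hGFAP-Cre the count of higher genes, 764, was 354 with the pseudocount and 340 at 50 CPM, and that of lower genes, 1312, was 563 and 531. For hGFAP-Cre over Emx1-Cre the count of higher genes, 930, was 291 with the pseudocount, 220 at 50 CPM, 1397 among all genes with a UMI, 1652 with at least 2000 genes, 594 with Neurod1 at 1 or more, 1672 at 3 or more and 1489 after thinning. That of lower genes, 600, was 260, 144, 1080, 1355, 390 and 1280 under the first 6 of these.

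The upper-layer median was negative in both mutants under each alternative, and was −1.49 for Emx1-Cre with Neurod1 at 3 or more. The neurogenic median with hGFAP-Cre was −0.21 among all genes with a UMI, −0.51 with at least 2000 genes, −0.23 without doublets, −0.26 after thinning and −0.25 when centred. The axon growth median with hGFAP-Cre was −0.52 without Nefl, Nefm or Nrgn cells. Among the neurogenic, migration, upper-layer, axon, synapse, ERK response and p53 lists, these medians changed sign. For Emx1-Cre, migration was 0.11 when centred, and synapse was 0.0023 with at least 2000 genes and 0.19 without cells holding other types' markers. The Emx1-Cre p53 target median was −0.10 with Neurod1 at 3 or more, −0.038 without doublets and −0.10 as the mean of each cell's CPM. For hGFAP-Cre, ERK response was 0.14 without Nefl, Nefm or Nrgn cells. In the remaining lists, compared here for that setting alone, further medians changed sign. With hGFAP-Cre, deep-layer identity was 0.24, neuropeptides 0.24, sterol synthesis 0.15, and glycolysis and hypoxia 0.09. The hGFAP-Cre integrated stress response was −0.083, and cell cycle and exit −0.087. With Emx1-Cre, glycolysis and hypoxia was 0.28.

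Of 100 named genes, 80 with Emx1-Cre and 93 with hGFAP-Cre were never counted as reversed. That count left out some changes of sign. With Emx1-Cre, Rnd2 ran from −0.16 to 0.68 and Grm5 from −0.57 to 0.81 over the settings. Crym ran from −1.53 to 0.51 with hGFAP-Cre. With Emx1-Cre these were counted as reversed. With Neurod1 at 3 or more, Ldb2 was 0.34, Mbp −0.92, Ntm 0.025, Syt1 0.23, Phlda1 −0.42, Id3 −0.59 and S100a13 −1.64. After thinning, Cntn1 was 0.53, Cdkn1a −0.040, Aen 0.40, Zmat3 0.11, Meig1 0, Mbp −0.39, Mef2c 0.059, Syt1 0.39 and Phlda1 −0.26. Without cells holding other types' markers, Cntn1 was 0.30, Mbp −0.21, Mef2c 1.22, Inhba 0.27, Gap43 0.43, Syt1 0.76, Phlda1 −0.36, Nrgn 1.73 and Dync1i1 0.54. Without Nefl, Nefm or Nrgn cells, Cntn1 was 0.043, Aen 0.035, Inhba 0.22 and Syt1 0.30. Without cells holding ependymal markers, Riiad1 was −0.15 and Mt1 −0.32. With at least 2000 genes, Mef2c was 0.16 and Syt1 0.048, and with Neurod1 at 1 or more, Ier3 was 0.21 and Nrgn 0.039. With hGFAP-Cre, without Nefl, Nefm or Nrgn cells, Cntn1 was 0.49, Npy 0.19 and Fezf2 0.30. Npy was 0.98 with Neurod1 at 1 or more and Sepp1 0.80 at 3 or more. After thinning, Nr2f2 was −0.41 and Id3 −0.81. Without cells holding other types' markers, Id3 was −0.47, and without doublets Phlda3 was −0.076. Depth limits genes under the floor of 3 counts, 3.68 CPM in the Emx1-Cre library.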
